A study of Mus musculus with 8 samples.

Results

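Described here are 10 genes of the actin and tropomyosin cytoskeleton, Tpm1, Tpm2, Tpm4, Pdlim7, Myl9, Tagln, Tagln2, Actn1, Flna and Tubb6, out of 32285 genes measured in single nuclei of mouse alveolarspheres, which are small lung epithelial organoids. The members were named as a group because their RNA had been seen to be high in nuclei with transitional markers in these same data. Their RNA values across those nuclei are therefore a description, and no test is made on them. Tubb6 is a tubulin, a subunit of microtubules, and the other members encode proteins that bind or contract actin filaments. All 10 were found in the RNA matrix, and each had at least 1 peak of open chromatin over it or within 2000 bp on either side.

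In GRCm38.p6, Tpm1 lies at chr9:67022590-67049672, Tpm2 at chr4:43513726-43523583 and Tpm4 at chr8:72135288-72153142. Pdlim7 lies at chr13:55497487-55513473 and Myl9 at chr2:156775408-156781657. Tagln is at chr9:45929628-45936058 and Tagln2 at chr1:172500246-172507375. Actn1 is at chr12:80167542-80260420, Flna at chrX:74223461-74249854 and Tubb6 at chr18:67390731-67402749. Tpm2 overlaps Car9 and Tagln overlaps Pcsk7 in the annotation, and how reads in such overlaps were counted is not known here. Pdlim7 holds the microRNA gene Mir6945. Within 2000 bp lie also Gm30639 for Tpm1, Sidt2 for Tagln and Igsf9 for Tagln2. ATAC counts over these 5 members cannot be told apart from those of these neighbours.

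Actin filaments give a cell its shape and its pull on the substrate. Tropomyosins wind along the filament and set which other proteins can bind it, alpha-actinin and filamin tie filaments together, and non-muscle myosin II, switched on through its regulatory light chain, contracts them. In the lung, cuboidal type II (ATII) cells make surfactant and can flatten into thin type I (ATI) cells through a transitional state with keratin 8, in which stretch and the actin cytoskeleton are well known to matter.

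The spheres were grown without serum or feeder cells from ATII cells of young and old mice. On day 9 they received adeno-associated virus of serotype 9 carrying Sox9 together with Cre (Sox9-Cre) or Cre alone (Cre), followed by 4 days in medium for ATII differentiation in both arms. Cells positive for the tdTomato reporter were sorted, and RNA and ATAC (open chromatin) were read from the same nuclei. The labels list 8 samples in 4 groups of 2. RNA was read for Sox9-Cre and for Cre, as was ATAC, so both arms carry the virus and Cre. The counts of all samples lie in 1 matrix per assay, and the 4 barcode prefixes in it (libraries A to D, in sorted order) match no label. Sox9-Cre and Cre could therefore not be compared, the age of the mice behind a nucleus is unknown, and the 4 libraries serve as 4 values of each quantity with no group of their own.

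After filtering, 7184 of 7224 nuclei remained. Library A held 1260, B 760, C 3236 and D 1928 nuclei, with median depths of 9802, 11600, 11090 and 11728 UMIs (unique molecules) per nucleus. Libraries A and B were shallower in ATAC, with medians of 4405 and 3776 counts in peaks, than C and D, with 9609 and 13992. Clustering and marker lists gave 1646 transitional-like nuclei (clusters 1 and 5), 997 ATI-like nuclei (cluster 2) and 1571 ATII-like nuclei (clusters 0 and 7). Nuclei with 5 or more Sox9 UMIs were kept apart as Sox9-high nuclei. There were 312 of them, 197 in library C, 114 in D, 1 in A and none in B. The classes together held 58.7% of the nuclei, and 228 of the Sox9-high nuclei came from clusters that the markers did not name. The marker lists that named the clusters summed to different levels. The transitional list summed to 204 UMIs per 10000 in transitional-like nuclei, against 67.5 in ATI-like and 32.9 in ATII-like nuclei. The ATII list summed to 123 and 320 in transitional-like and ATI-like nuclei, against 1318 in ATII-like nuclei. The ATI list summed to 135 in transitional-like, 248 in ATI-like and 45.5 in ATII-like nuclei, so ATI-like nuclei were less than 2-fold above transitional-like ones on their own markers. Median depth was 11019 UMIs in transitional-like, 9597 in ATI-like and 12115 in ATII-like nuclei. Tpm2, Pdlim7, Myl9, Tagln and Flna were among the genes used for clustering. With all cytoskeleton genes left out of it, 9 of the 10 members were still at least 2-fold higher in transitional-like than in ATII-like nuclei. For Tpm2 and Myl9 the transitional-like and ATI-like clusters then overlapped. Tpm2 was 3.52 and 0.794 UMIs per 10000 against 0.176 and 0.805, and Myl9 0.488 and 0.0478 against 0.0168 and 0.120. Pdlim7 was 0.318 and 0.325 against 0.00897 and 0.0351.

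Levels below are UMIs per 10000, summed over the nuclei of a class. The matrix counts as 1 sample, so no p-value is given, and every interval is a 95% interval for counting error only. The 10 genes summed to 36.4 (36.1 to 36.7) in transitional-like nuclei, 14.9 in ATI-like nuclei and 11.8 in ATII-like nuclei. By library A, B, C and D the sum was 35.1, 39.3, 35.4 and 37.2 in transitional-like nuclei, 14.5, 16.9, 14.4 and 15.05 in ATI-like nuclei, and 12.4, 12.7, 11.8 and 11.3 in ATII-like nuclei. In all 4 libraries the transitional-like sum lay far above the others, and the ATI-like sum stood a little above the ATII-like one.

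All 10 genes were at least 2-fold higher in transitional-like than in ATII-like nuclei. Of the 14364 genes with at least 30 UMIs over both classes, 14.5% were at least 2-fold higher in this comparison and 9.98% at least 2-fold lower. Since the members were chosen on this contrast, nothing is read from the difference between 10 of 10 and that share. Against ATI-like nuclei 8 members were at least 2-fold higher and none was 2-fold lower, where 9.77% of 13835 genes were higher and 7.5% lower. The 2 members under the cutoff were Tpm1 and Tagln2. The median log2 fold over the members was 2.34 against ATII-like nuclei and 1.78 against ATI-like nuclei, where over all genes it was 0.11 and -0.01. With classes cut by marker score in place of clusters, 7 members passed against ATII-like nuclei and 6 against ATI-like nuclei. No share over all genes is given for that cut. The heat-shock RNAs Hspa1a and Hspa1b were, like the members, higher in transitional-like nuclei, at 0.864 UMIs per 10000, and in Sox9-high nuclei, at 0.817. They had 0.123 in ATI-like and 0.153 in ATII-like nuclei, an order unlike that of the members' sum. Their part in the member values was not tested.

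Among the tropomyosins, Tpm2, which encodes the beta chain known from muscle, stood furthest apart. Its level by library A, B, C and D was 2.85, 3.53, 2.30 and 2.62 in transitional-like nuclei, 0.241, 0.322, 0.184 and 0.131 in ATI-like nuclei, and 0.0455, 0.0396, 0.0403 and 0.0404 in ATII-like nuclei. The classes did not overlap in any library. The fold over ATII-like nuclei was 64.9 (52.3 to 81.7) and over ATI-like nuclei 13.4 (11.7 to 15.5). By marker score these folds were 39.2 and 4.06. A Tpm2 UMI was found in 45.7% of transitional-like, 10.6% of ATI-like and 4.39% of ATII-like nuclei. After each nucleus was thinned to 2000 UMIs these shares were 23.3%, 2.95% and 0.841%, in the same order.

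Tpm1, the alpha tropomyosin gene, was already well expressed in every class. It had 13.9, 14.7, 13.2 and 14.0 UMIs per 10000 in transitional-like nuclei of libraries A, B, C and D, 7.78, 9.02, 7.33 and 7.96 in ATI-like nuclei and 6.53, 6.35, 5.96 and 5.75 in ATII-like nuclei. Its fold was 2.29 (2.24 to 2.34) over ATII-like nuclei and 1.77 over ATI-like nuclei. Tpm4, another tropomyosin of non-muscle cells, had 4.87, 5.29, 5.05 and 5.27 in transitional-like nuclei, 1.74, 2.24, 1.68 and 1.72 in ATI-like nuclei and 1.90, 1.76, 1.66 and 1.56 in ATII-like nuclei. For Tpm4 the ATI-like and ATII-like values overlapped, and the transitional-like ones lay 3.06-fold (2.94 to 3.18) above ATII-like nuclei. Over ATI-like nuclei the Tpm4 fold was 2.89, and 1.89 by marker score. The remaining tropomyosin gene, Tpm3, is no member and differed little, at 3.21 in transitional-like nuclei against 2.79 in ATII-like nuclei.

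Pdlim7 and Myl9 gave few UMIs in ATI-like and ATII-like nuclei. Pdlim7 encodes a protein with PDZ and LIM domains that sits on actin bundles. It gave 738 UMIs in transitional-like nuclei, 9 in ATI-like and 14 in ATII-like nuclei. Its level in transitional-like nuclei was 0.273, 0.495, 0.310 and 0.416 in libraries A, B, C and D, and the fold over ATII-like nuclei was 52.0 (30.8 to 95.7). Myl9, a regulatory light chain of myosin II, gave 727 UMIs in transitional-like nuclei, 17 in ATI-like and 23 in ATII-like nuclei. Its transitional-like level was 0.291, 0.570, 0.316 and 0.348, and its fold over ATII-like nuclei 31.2 (20.6 to 49.6). By marker score the folds over ATII-like and ATI-like nuclei were 26.5 and 7.74 for Pdlim7 and 20.1 and 3.99 for Myl9, where by cluster those over ATI-like nuclei were 42.2 and 22.0. Library B had the highest transitional-like level of both genes, as it had of Tpm2. A UMI was present in 22.7% of transitional-like nuclei for Pdlim7 and 11.4% for Myl9, while in ATII-like nuclei the shares were 0.827% and 1.02%.

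The cross-linkers Actn1 and Flna, which encode alpha-actinin 1 and filamin A, differed less in fold but evenly across libraries. Actn1 had 4.78, 5.02, 5.22 and 5.29 UMIs per 10000 in transitional-like nuclei, 1.30, 1.49, 1.59 and 1.40 in ATI-like nuclei and 1.08, 1.19, 1.17 and 1.14 in ATII-like nuclei. Flna had 3.79, 4.25, 4.37 and 4.33 in transitional-like nuclei, 1.19, 1.30, 1.24 and 1.26 in ATI-like nuclei and 0.721, 0.777, 0.764 and 0.693 in ATII-like nuclei. For both genes the 3 classes were in the same order in all 4 libraries, with no overlap of the values. The Actn1 intervals of ATI-like and ATII-like nuclei did overlap in library A (1.15 to 1.47 and 0.963 to 1.22) and in B. The fold over ATII-like nuclei was 4.46 (4.26 to 4.67) for Actn1 and 5.72 (5.41 to 6.05) for Flna. Over ATI-like nuclei it was 3.48 for Actn1 and 3.41 for Flna, and by marker score 2.18 and 2.06.

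The transgelins behaved unlike each other. Tagln2, the broadly expressed transgelin 2, had 4.02, 4.98, 4.20 and 4.48 in transitional-like nuclei, 2.20, 2.48, 2.32 and 2.48 in ATI-like nuclei and 2.02, 2.50, 2.13 and 2.07 in ATII-like nuclei. Its fold over ATII-like nuclei of 2.04 (1.97 to 2.12) was the smallest of the 10, and in libraries A, B and C it was 1.99, 1.99 and 1.97. Tagln, a marker of smooth muscle, was close to absent, with 57 UMIs in transitional-like nuclei, 9 in ATI-like and 20 in ATII-like nuclei. Library A held 3 of the 57 UMIs, B 21, C 27 and D 6. The Tagln fold over ATII-like nuclei was 2.81 (1.67 to 4.95), but in library A it was 0.685, below 1, and in B 5.34. By marker score it was 1.79. The share of nuclei with a Tagln UMI was 1.46% in transitional-like and 1.21% in ATII-like nuclei, with overlapping intervals (0.936% to 2.16% and 0.730% to 1.88%), and in library B the 21 UMIs came from 2.48% of 202 nuclei. Tagln was the 1 member whose direction was not the same in every library.

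Tubb6 had 0.369, 0.412, 0.415 and 0.445 UMIs per 10000 in transitional-like nuclei, 0.0289, 0.0550, 0.0515 and 0.0727 in ATI-like nuclei and 0.0493, 0.0445, 0.0635 and 0.0579 in ATII-like nuclei. Transitional-like values stood well above both other classes, which overlapped. The fold was 7.13 (5.87 to 8.72) over ATII-like nuclei and 7.83 (5.97 to 10.5) over ATI-like nuclei, the second of these being 4.50 by marker score.

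**Figure D1:**
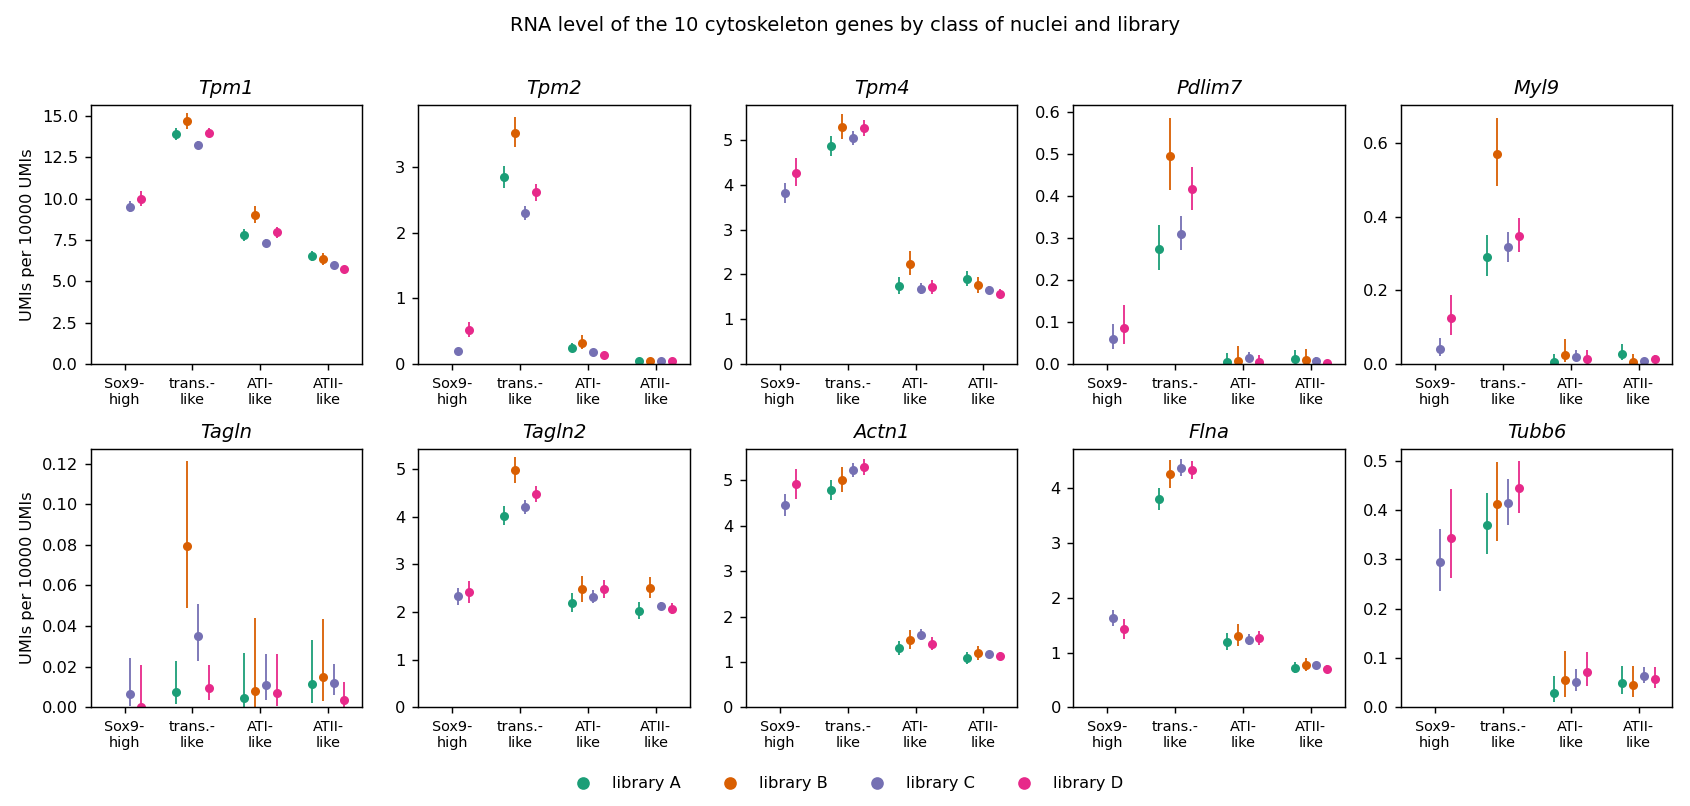
Level of each of the 10 genes in UMIs per 10000 (vertical axis, from 0, a scale of its own per gene) in Sox9-high, transitional-like, ATI-like and ATII-like nuclei; points are libraries, with 95% intervals for counting error. In 9 genes every transitional-like point lies above every ATI-like and ATII-like point of its library; Tagln, with 57 UMIs in transitional-like nuclei, is the exception.

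By the clusters used here, ATI-like and ATII-like nuclei differed much less from each other. Of the 8 members with at least 30 UMIs over both classes 1 was at least 2-fold higher in ATI-like nuclei and none was 2-fold lower, with 9.03% of 13545 genes higher and 7.21% lower. That gene was Tpm2, at 4.83-fold (3.73 to 6.31), and its fold was 5.29, 8.14, 4.55 and 3.24 in libraries A, B, C and D. Flna was 1.68-fold (1.56 to 1.81) higher, Tpm1 1.29-fold and Actn1 1.28-fold, each above 1 in every library. Tagln2 had a fold of 1.104, Tpm4 of 1.06 and Tubb6 of 0.910. Myl9 had 0.0161 UMIs per 10000 in ATI-like and 0.0113 in ATII-like nuclei. The count was 2 without library A, and 2 or 3 under 7 other settings given in the closing section. The members' median log2 fold was 0.36, against 0.11 over all genes. With the cytoskeleton genes left out of the clustering, ATI-like clusters of 859 and 756 nuclei faced ATII-like clusters of 1038 and 674 nuclei. Tpm2 was then 0.176 and 0.805 against 0.0665 and 0.0326. Myl9 was 0.0168 and 0.120 against 0.0176 and 0.00510, and Tubb6 0.0516 and 0.0689 against 0.0474 and 0.0683.

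**Figure D2:**
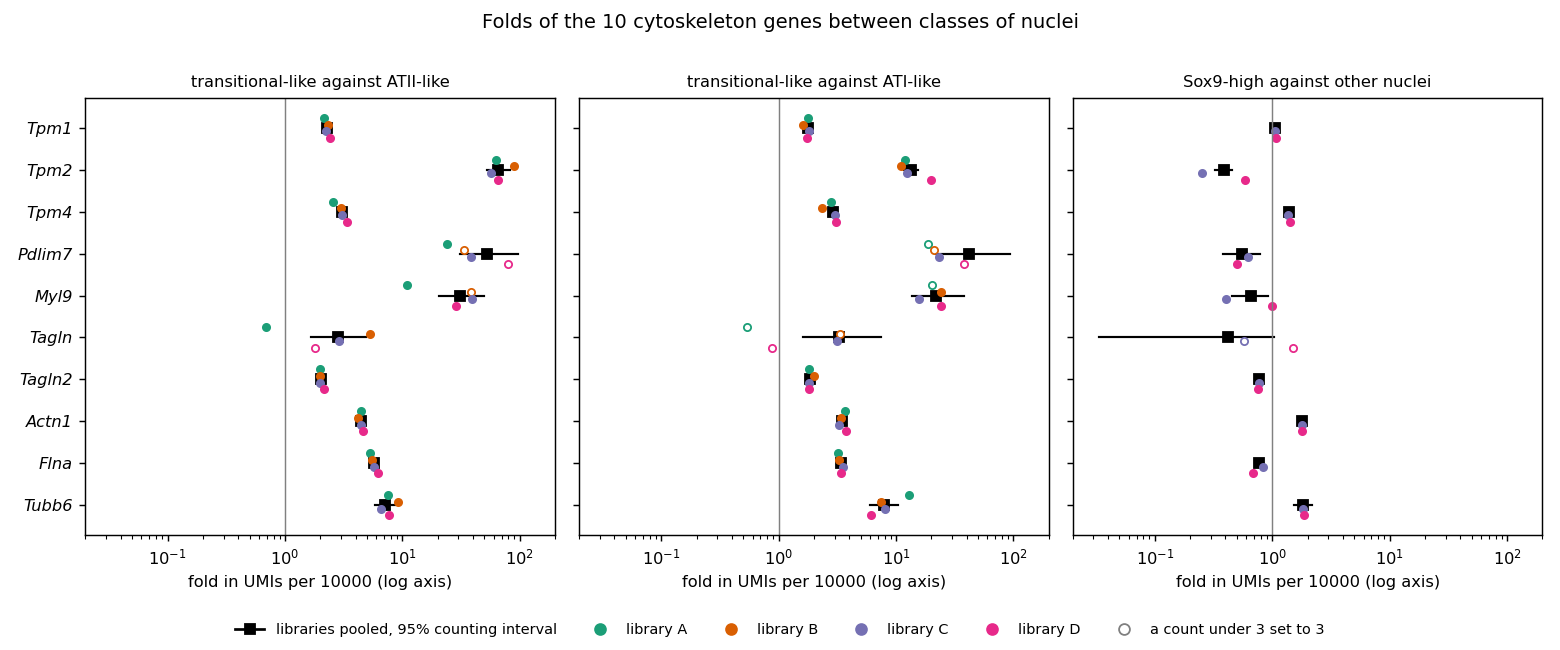
Fold in UMIs per 10000 (horizontal log axis) of the 10 genes between transitional-like and ATII-like nuclei, transitional-like and ATI-like nuclei, and Sox9-high and other nuclei of libraries C and D; black squares pool the libraries with 95% intervals for counting error, dots are libraries, and open dots have a count under 3 set to 3. Nearly all values lie right of 1 in the first 2 panels, with Tpm2 at 64.9 and 13.4, and on both sides of 1 in the third, with Actn1 at 1.78 and Tpm2 at 0.388.

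The members did not move as a block within the transitional-like class. Cluster 1 (1055 nuclei) had a summed level of 42.6 and cluster 5 (591 nuclei) one of 22.3, against 11.9 and 11.7 in the ATII-like clusters 0 and 7. Tpm2 and Tubb6 are among the 10 genes that lead cluster 1 by fold, and Hspa1a, a heat-shock gene, leads cluster 5. Myl9 was 8.24-fold (5.92 to 11.8) higher in cluster 1 than in cluster 5, at 0.485 against 0.0588, and Tpm2 5.25-fold (4.75 to 5.81), at 3.53 against 0.674. Flna was 2.66-fold higher, Tpm4 2.00-fold, Actn1 1.87-fold and Tpm1 1.68-fold. Pdlim7 ran the other way, with 0.320 in cluster 1 and 0.450 in cluster 5, a fold of 0.710 (0.611 to 0.827). Cluster 1 was the deeper, at a median of 11842 UMIs per nucleus where cluster 5 had 9287. Within the class the heat-shock RNAs ran against the members' sum, at 0.340 UMIs per 10000 in cluster 1 and 2.05 in cluster 5. With cluster 5 alone as the transitional-like class, a comparison chosen after seeing the data, 6 members were at least 2-fold above ATII-like nuclei and 5 above ATI-like nuclei. The fold over ATII-like nuclei was then 16.5 for Tpm2, 5.18 for Myl9, 65.1 for Pdlim7 and 1.56 for Tpm1. No share over all genes is given for cluster 5 alone, so its counts have no background beside them.

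Outside the named classes, the unnamed clusters 10 and 11 came nearest to cluster 1, with summed levels of 29.5 and 28.1. Sox9-high nuclei are left out of all cluster levels and counts given here. Cluster 10, led by Mgarp, Bst1 and Loxl2, then had 86 nuclei in library C, 7 in D and none in A or B. Its Tpm2 level of 3.61 was as high as the 3.53 of cluster 1 and 88.1-fold (69.4 to 113) above ATII-like nuclei, its Actn1 level was 5.003, and it had 0 Tagln UMIs. Cluster 11 held 26 nuclei led by interferon-induced genes and had a Tpm2 level of 2.72. Unnamed cluster 3 held 848 nuclei. It was above cluster 5 in Tpm1 (10.5 against 9.38), Tpm2 (0.808 against 0.674) and Tagln2 (4.23 against 3.34). It was below cluster 5 in Actn1 (1.81 against 3.21), Flna (1.65 against 1.97) and Pdlim7 (0.0793 against 0.450). With the cytoskeleton genes left out of the clustering, an ATI-like cluster of 756 nuclei had a Tpm2 level of 0.805 and a Tagln2 level of 4.12. The lowest sums after the ATII-like clusters were in the airway secretory-like cluster 9, at 12.2, and the ATI-like cluster 2, at 14.9.

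**Figure D3:**
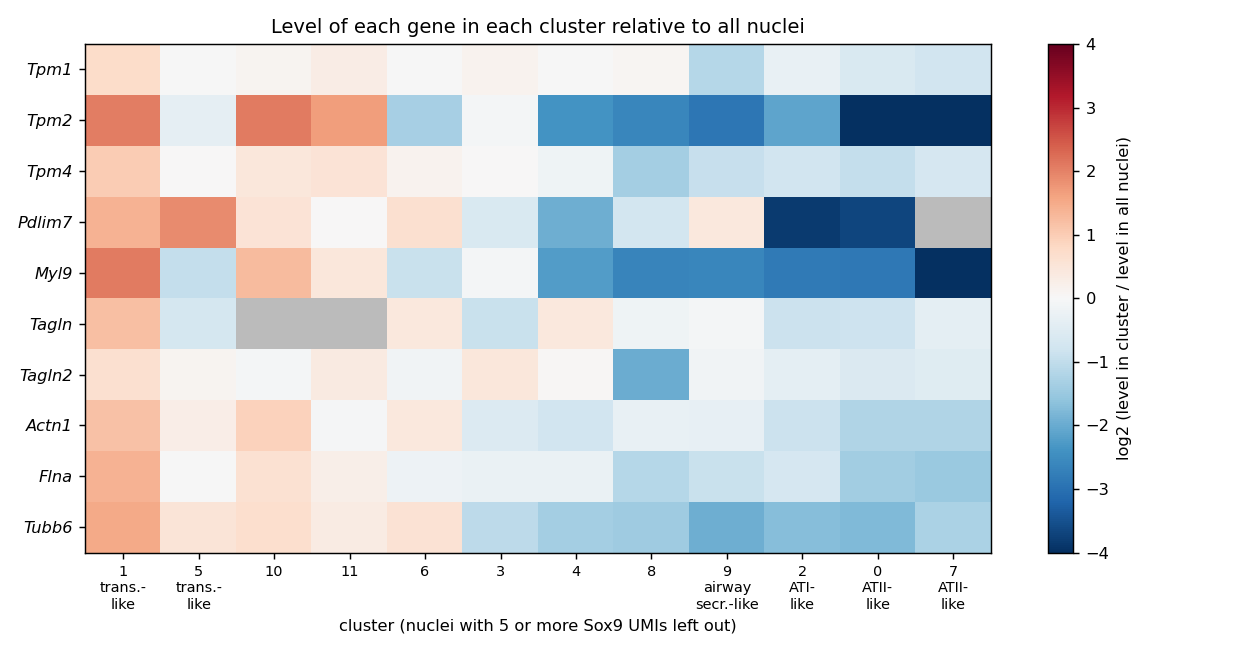
Log2 of each gene's level in a cluster over its level in all nuclei (colour), for the 10 genes and 12 clusters; gray marks a cluster with under 3 UMIs of the gene. Cluster 1 is high for all 10 genes and cluster 5 for Pdlim7, while clusters 0, 7 and 2 are low for most.

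Single nuclei differed in the same order once thinned to 2000 UMIs each, which left out 30 transitional-like, 14 ATI-like and 25 ATII-like nuclei with fewer. A transitional-like nucleus showed on average 3.32 of the 10 genes, an ATI-like nucleus 1.83 and an ATII-like nucleus 1.58. At least 3 of the genes were detected in 67.5% of transitional-like nuclei (79.8% in cluster 1 and 44.3% in cluster 5), 25.03% of ATI-like and 16.7% of ATII-like nuclei. None was detected in 2.10%, 9.46% and 12.7% of the nuclei of these classes in the same order.

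Sox9-high nuclei carried a different mix of the members. They were compared with all other nuclei of libraries C and D, the libraries with at least 20 Sox9-high nuclei. No member was at least 2-fold higher and 2 were at least 2-fold lower, with 5.99% of 15788 genes higher and 4.9% lower. Actn1 had 4.46 UMIs per 10000 in library C and 4.92 in D in Sox9-high nuclei, and was 1.78-fold (1.70 to 1.86) above other nuclei, with 1.78 in C and 1.79 in D. Tubb6 was 1.84-fold (1.54 to 2.19) higher, with 1.83 in C and 1.87 in D, and Tpm4 1.38-fold (1.32 to 1.45). Tpm1 was close to even at 1.06. These 4 genes were above 1 in both libraries.

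Tpm2 was lower in Sox9-high nuclei, at 0.313 against 0.805 in the other nuclei, a fold of 0.388 (0.327 to 0.457). The fold was 0.251 in library C and 0.589 in D, so library C decided that it passed the 2-fold cutoff, and without C no member was 2-fold lower. Pdlim7 had a fold of 0.556 (0.380 to 0.787), Tagln2 of 0.767 and Flna of 0.776, each below 1 in both libraries. Myl9 had a fold of 0.658 (0.452 to 0.929), with 0.405 in C and 1.00 in D. Tagln, the other gene counted as 2-fold lower, rested on 2 UMIs in Sox9-high nuclei against 90 in the others. The members' median log2 fold was -0.37, where it was -0.00 over all genes.

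Set beside the named classes within libraries C and D, Sox9-high nuclei had 0.881 times (0.840 to 0.924) the Actn1 level of transitional-like nuclei, 0.774 times that of Tpm4 and 0.730 times that of Tubb6. For Tpm2 the same ratio was 0.128, for Pdlim7 0.194, for Myl9 0.216 and for Flna 0.357. Actn1 was thus near its transitional-like level in Sox9-high nuclei while Tpm2, Pdlim7 and Myl9 were well under theirs. Over ATII-like nuclei Actn1 was 4.00-fold higher in Sox9-high nuclei, Tubb6 5.09-fold and Tpm2 7.75-fold, and Tagln2 had a fold of 1.12. The other nuclei of libraries C and D include the transitional-like ones, so the fold against all of them and the ratio to a class answer different questions.

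Actn1 and Tpm2 ran in opposite directions with the number of Sox9 UMIs. Over bins of 0, 1 to 2, 3 to 4, 5 to 9 and at least 10 Sox9 UMIs, which held 5524, 1080, 268, 184 and 128 nuclei, the Actn1 level was 2.43, 2.96, 2.86, 3.63 and 5.87. Tubb6 was 0.156, 0.177, 0.218, 0.251 and 0.388 over the same bins, and Tpm2 0.942, 0.743, 0.579, 0.378 and 0.308. Actn1 and Tubb6 were highest in the top bin and Tpm2 lowest there. Tpm2 was lower from bin to bin in both libraries, with 0.786, 0.733, 0.574, 0.204 and 0.169 in C and 0.953, 0.718, 0.588, 0.559 and 0.482 in D. Actn1 was 2.38, 2.75, 2.85, 3.49 and 5.94 in C and 2.55, 3.35, 2.88, 3.97 and 5.77 in D. Tpm1 stayed between 8.99 and 10.5. Of the 312 Sox9-high nuclei 207 came from the unnamed cluster 6. The nuclei of cluster 6 with fewer than 5 Sox9 UMIs had a Tpm2 level of 0.346 and an Actn1 level of 3.54. Pooled bins also mix libraries, as the 0 bin took in 1248 of 1260 nuclei of A and 750 of 760 of B. The bins thus differ in cluster and in library as well as in Sox9 UMIs. The part of each in these values was not tested. Bins are set on UMIs, so deeper nuclei fall more often into high bins, and the median depth was 14368 UMIs in Sox9-high nuclei. With every nucleus thinned to 2000 UMIs, the Sox9-high fold was 2.01 for Actn1, 1.82 for Tubb6 and 0.343 for Tpm2.

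**Figure D4:**
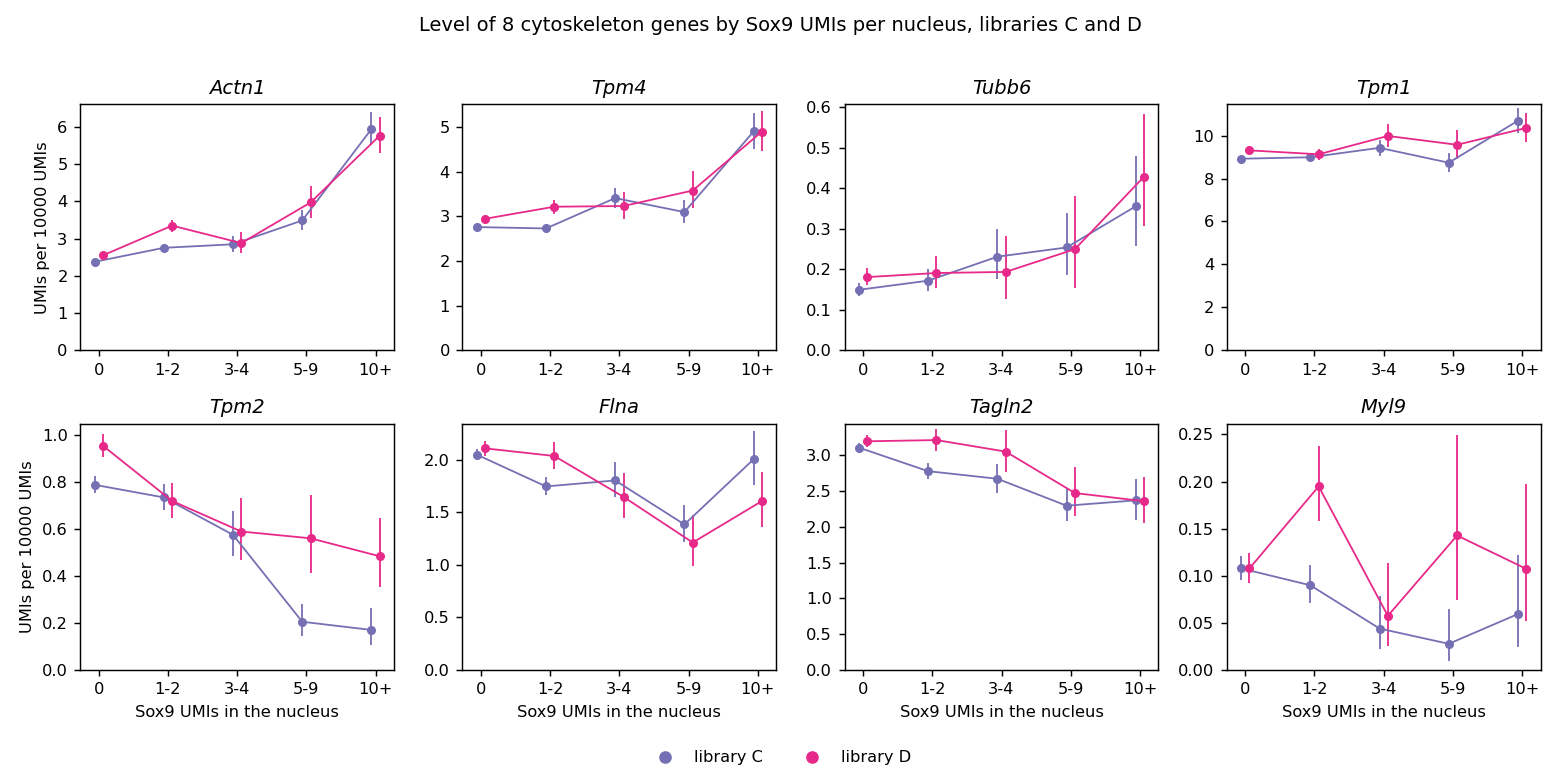
Level in UMIs per 10000 (vertical axis, a scale of its own per gene) of 8 of the genes in nuclei of libraries C and D by Sox9 UMIs per nucleus (horizontal axis, 5 bins), with 95% intervals for counting error. Actn1 ends at 5.94 in library C and 5.77 in D in the top bin, its highest values, while Tpm2 ends at 0.169 and 0.482, its lowest.

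Chromatin over the members differed far less than their RNA. The members were chosen by RNA and not by ATAC, so nothing is read from that difference. The unit is ATAC counts in peaks over the gene and 2000 bp on either side, per 10000 counts in all peaks, and a gene was called more accessible from 25% above and less accessible from 20% below. Transitional-like against ATII-like nuclei, 2 of 10 members were more accessible and 1 was less so, where 13.6% of 19553 genes were more accessible and 12.2% less. The median fold was 1.16 over the members and 0.959 over all genes. Tpm2 had 1.29 (1.17 to 1.42), with 1.28, 2.00, 1.11 and 1.40 in libraries A, B, C and D. Myl9 had 1.46 (1.17 to 1.85), with 1.52, 0.963, 1.198 and 2.30, so it was below 1 in library B and highest in D. Without library D no member passed. Tagln had 0.783 (0.631 to 0.9705) in its single peak, which lies outside the gene. Actn1, 4.46-fold higher in RNA, had 0.946, and Tpm4 had 0.884.

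Transitional-like against ATI-like nuclei, Pdlim7 (1.35, 1.24 to 1.48) and Tubb6 (1.33, 1.16 to 1.52) were more accessible and no member was less so, against 13.5% and 8.44% of genes. ATI-like against ATII-like nuclei, no member passed in either direction, where 8.1% of genes were more accessible and 10.8% less, and without library C 2 passed as more accessible. In Sox9-high against other nuclei no member was more accessible and Myl9, at 0.753 (0.513 to 1.07), was less so, against 9.59% and 10.6% of genes. Actn1 came to 1.22 (1.14 to 1.30), with 1.18 in library C and 1.26 in D, and without library C 2 members passed as more accessible. Shares of 2, 0 or 1 of 10 are close to those over all genes, so at the level of whole genes the chromatin of the members did not stand out.

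**Figure D5:**
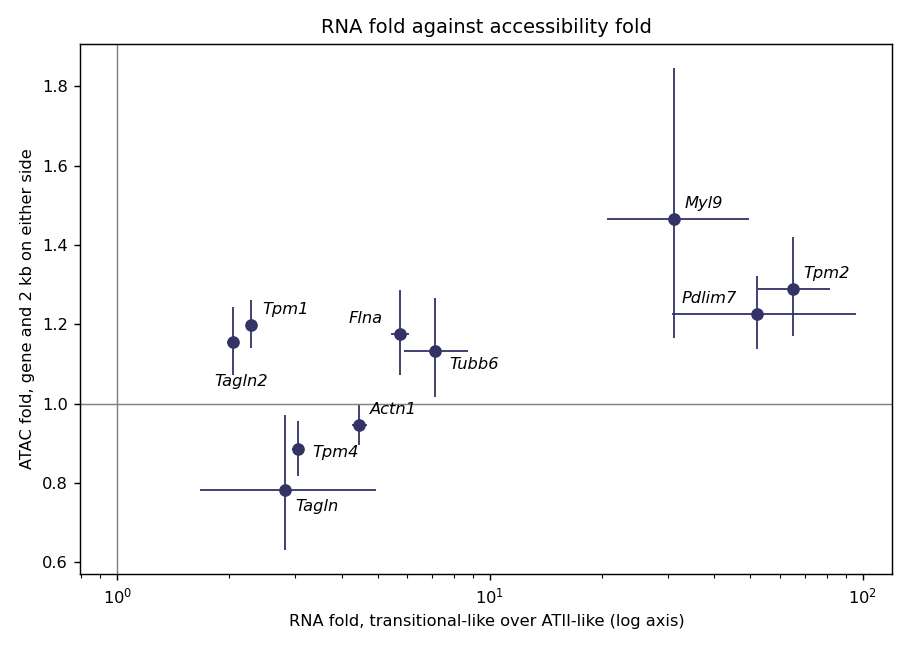
Transitional-like against ATII-like nuclei: fold in RNA level (horizontal log axis) and in ATAC counts over the gene and 2 kb on either side (vertical axis) for each of the 10 genes, with 95% intervals for counting error. RNA folds reach 64.9 for Tpm2, while every ATAC fold lies between 0.783 and 1.46.

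Single peaks gave the same picture. Of 51 peaks over the members 7 were at least 2-fold more accessible in transitional-like than in ATII-like nuclei, near the 15.4% of 106479 peaks that were, and 2 were at least 2-fold less so. Against ATI-like nuclei 3 were more accessible, under the 12.1% of all peaks, and 1 was less so. The largest fold was that of a peak inside Pdlim7 at chr13:55510312-55511344. Its level was 0.2003 counts per 10000 in transitional-like nuclei, 0.0326 in ATI-like and 0.0322 in ATII-like nuclei. The fold was 6.14 (4.62 to 8.29) over ATII-like nuclei, with 5.61, 6.85, 5.43 and 6.81 in libraries A, B, C and D, and 6.21 (4.38 to 9.06) over ATI-like nuclei. This peak was singled out after its values were seen, as the highest of 51. It ranked 1883 of 106479 peaks by its fold over ATII-like nuclei, a rank that does not set it apart as the highest of 51. The next were peaks beyond the end of Tpm1 at chr9:67019806-67020626, which also overlaps Gm30639, with 3.07, in Flna at chrX:74244073-74245020, with 2.72, and in Actn1 at chr12:80232661-80233514, with 2.52. The Tpm1 peak beyond the gene end was also 2.43-fold (1.98 to 2.97) more accessible in Sox9-high than in other nuclei. Of the 15 peaks of Actn1, 3 were over 2-fold more accessible in Sox9-high nuclei, at most 2.63-fold at chr12:80244550-80245263. No share over all peaks is given for the Sox9-high comparison, so nothing is read from these peaks. All positions are in GRCm38, and the gene table used gives no exons, so a peak is placed only inside or outside the gene.

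Peaks over the transcript starts differed between genes. The start used for Tpm1 lies inside the gene as annotated, as does that of Flna. The Tpm1 start-site peak at chr9:67048924-67049882 was 2.40-fold (2.01 to 2.88) more accessible in transitional-like than in ATII-like nuclei and 2.39-fold more than in ATI-like nuclei. The Tpm2 start-site peak had 1.70 (1.36 to 2.14), that of Myl9 1.44 (1.08 to 1.92) and that of Pdlim7 1.26 (1.11 to 1.43), while Actn1, Flna and Tpm4 had 0.933, 0.959 and 0.955. Printed here, since their RNA folds were the highest of the members, are the windows of Tpm2 (chr4:43523584-43523804, minus strand), Pdlim7 (chr13:55513474-55513696, minus strand) and Myl9 (chr2:156775214-156775407, plus strand), from RefSeq in GRCm38.p6. Each holds the 250 bases before the transcript start that the promoter table uses, without the last 29, 27 and 56 bases, which lie inside the gene as annotated. Capitals mark matches to the motifs searched.
Tpm2: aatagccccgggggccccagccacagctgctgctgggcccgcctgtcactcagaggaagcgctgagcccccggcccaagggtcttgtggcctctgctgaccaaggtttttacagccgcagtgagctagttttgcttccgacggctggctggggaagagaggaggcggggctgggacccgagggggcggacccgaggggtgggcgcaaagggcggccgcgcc
Pdlim7: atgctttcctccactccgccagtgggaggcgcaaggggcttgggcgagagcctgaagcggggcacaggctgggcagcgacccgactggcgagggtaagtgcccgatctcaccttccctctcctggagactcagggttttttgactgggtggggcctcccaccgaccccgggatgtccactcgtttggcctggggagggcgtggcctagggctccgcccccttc
Myl9: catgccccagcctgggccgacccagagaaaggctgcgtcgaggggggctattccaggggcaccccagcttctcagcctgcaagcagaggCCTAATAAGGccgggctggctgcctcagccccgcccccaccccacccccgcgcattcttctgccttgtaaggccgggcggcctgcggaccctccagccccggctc
The motifs searched, on both strands, over the whole 250 bases, were the CArG box bound by serum response factor, the TEAD motif GGAATG, the AP-1 motif TGANTCA and the TATA box TATAAA. Myl9 has 1 CArG box, starting 161 bases before the start, and Tpm1 has 1 TEAD motif, starting 56 bases before its inner start. Of the 8 members whose promoter windows were searched, Tagln2 has 2 TEAD motifs and Flna 1, and Tpm2, Tpm4, Pdlim7 and Actn1 have none of the motifs. Tagln and Tubb6 were not among those searched, Tubb6 because its chromosome was left out of the search. Over 32817 promoters 1.47% held a CArG box, 12.6% the TEAD motif, 6.75% the AP-1 motif and 12.4% the TATA box. A match is a run of letters and not evidence of binding.

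Other genes of the actin system were taken from 10 lists of families and regulators, with the members left out. Against ATII-like nuclei 33 of 72 tested genes were at least 2-fold higher and 3 were at least 2-fold lower, with a median log2 fold of 0.91, beside the 14.5% and 9.98% of all genes. The lists were chosen with results of these data known, so this is a description. All 3 tested actins were higher. Actb, the main cytoplasmic actin, had 54.5 UMIs per 10000 in transitional-like nuclei against 20.9 in ATII-like nuclei, and Actg1 2.41-fold more. Acta1, the skeletal muscle actin, gave 128 UMIs against 1.

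Of the filament turnover genes 8 of 11 were 2-fold higher, among them Gsn (gelsolin, 5.39-fold), Tmsb10 (4.59-fold) and Cfl1 (cofilin, 2.67-fold). The list's Tmsb4x, a sequesterer of actin monomers, had 51.2 against 45.0. Of 7 further cross-linkers 4 were higher, including Flnc (filamin C), with 167 UMIs against 5, and Pls3 (plastin 3, 2.65-fold), and Lcp1, the plastin of blood cells, was lower at 0.266. Of 10 further myosin II genes 4 were higher, with Myl6 at 21.0 against 7.68, and Mylk, the myosin light chain kinase, was lower at 0.327. Of 9 further PDZ-LIM and zyxin genes 4 were higher, with Ajuba at 6.86-fold and Zyx at 4.68-fold. Of 11 focal adhesion adaptors 3 were higher, with Tgfb1i1 (8.72-fold), Ilk (2.84-fold) and Vcl (vinculin, 2.01-fold), and Tln2 was lower at 0.456. Of 8 further tubulins 3 were higher, Tuba1a by 11.96-fold and Tubb2b by 8.79-fold among them. Of 9 regulators of the SRF and YAP pathways 2 were higher. They were Tead4, at 2.89-fold, and Myocd, with 28 UMIs against 5, while Yap1 had a fold of 0.924 and Srf of 1.88.

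Against ATI-like nuclei 13 of 71 of these other genes were at least 2-fold higher and 4 at least 2-fold lower, beside 9.77% and 7.5% of all genes. No turnover gene and no further myosin gene passed in either direction. Tmsb4x had 51.2 in transitional-like against 73.3 in ATI-like nuclei, Gsn 2.70 against 2.92, and Pdlim2 1.05 against 2.18. ATI-like against ATII-like nuclei, 18 of 68 were higher and 4 lower, beside 9.03% and 7.21% of all genes, with Gsn at 5.82-fold and Myl6 at 2.15-fold. In Sox9-high against other nuclei 6 of 75 were higher and 2 lower, near the 5.99% and 4.9% of all genes. Tubb2b, another beta tubulin, had 2.22 against 0.2503, a fold of 8.87 (8.19 to 9.60), and Tubb2a 3.24 against 0.828.

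Across 14 points (4 libraries of the 3 named classes and libraries C and D of Sox9-high nuclei), the genes whose log level followed the members' sum most closely were Krt18, Nap1l1, Dstn, Sfn and Rpl15, with Pearson's r of 0.995, 0.994, 0.994, 0.992 and 0.991. The points share libraries and classes, and Krt18 and Sfn are on the transitional marker list, so the r values only describe. Krt18, a keratin of simple epithelia, had 21.2 UMIs per 10000 in transitional-like, 8.98 in Sox9-high, 4.49 in ATI-like and 2.61 in ATII-like nuclei. Dstn, which encodes the actin-severing protein destrin, had 23.4, 17.2, 11.3 and 9.29 in the same order.

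Tagln, Myl9 and Tpm2 are also known from smooth muscle, so markers of other cells were measured in the same classes. The 12 smooth muscle and pericyte markers summed to 0.196 UMIs per 10000 in transitional-like nuclei (0.155 to 0.220 by library), 0.104 in ATI-like and 0.0883 in ATII-like nuclei. Des had 0 UMIs in each of the 3 classes, and Notch3 made up 224 of the 403 UMIs in transitional-like nuclei. The 10 fibroblast markers summed to 0.0526, 0.0170 and 0.0153 in the same order, with Col3a1, Lum and Tcf21 at 0 in all 3 classes. In transitional-like nuclei the fibroblast sum ran from 0.00780 in library A to 0.128 in D, where 74 of its 81 UMIs were Col1a1. The mesothelial list summed to 0.822, 0.468 and 0.0340, nearly all of it Msln. These small sums were higher in transitional-like nuclei, like the members, and their part in the member values was not tested.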

How the data were processed

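Nuclei of sorted tdTomato-positive alveolarsphere cells were read as 10x Multiome libraries, per the labels' protocols. RNA (UMIs per gene) and ATAC (counts per peak) were deposited by the authors as whole-number counts without normalization, in 1 pooled matrix each. The submitters' processing notes name Signac 1.10.0, Seurat 4.3.0 and Cell Ranger 6.0.1, with GRCm38 and mm10 as builds. For the peak caller the sources used here give no name.

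The members and all lists were chosen with earlier results of these data known. Nuclei with at least 500 UMIs, 300 genes and under 20% mitochondrial UMIs were kept (25 removed). The doublet caller marked 15 nuclei (0.208%), and these were removed. How well the caller worked was not tested, and doublets may remain. Leaving out the highest 5% of scores was an alternative. Libraries shared 20 barcode sequences. Counts were scaled to 10000 and logged; 2000 variable genes without Sox9, 30 principal components, 15 neighbours and Leiden resolution 0.8 gave the clusters (scanpy 1.11.5, leidenalg 0.10.2, Python 3.11.15). Clusters were named from marker lists. A supporting marker was detected in 5% or more of the nuclei and exceeded the remaining nuclei 1.5-fold. A name needed 3 supporting markers, 30% of its list, and 3 of its markers in the top 50 genes by fold.

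Levels are summed counts per 10000 with exact Poisson intervals, shares are exact, and folds have exact conditional binomial intervals (scipy 1.17.1), all at 95%. In a fold a count under 3 was set to 3. Features with at least 30 counts over both classes were compared, with cutoffs of 2-fold for RNA, 25% above or 20% below for the ATAC counts of a gene and 2-fold for single peaks. The fold calculation was tested on simulated data. Gene positions and promoters came from RefSeq tables of GRCm38.p6. Alternatives changed the filters, the clustering, the class definition, depth, the window and the libraries in use.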

Additional observations from a re-analysis of the deposited data

How the results depend on the processing

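The count of members at least 2-fold higher in transitional-like than in ATII-like nuclei was 10, and 9 to 10 when each library was left out in turn. With cluster 5 alone as the transitional-like class, chosen after seeing the data, it was 6, and against ATI-like nuclei 5 in place of 8. The count in ATI-like against ATII-like nuclei was 1. It became 3 with the highest 5% of doublet scores left out, with at least 1000 UMIs per nucleus, at resolution 1.2, with the cytoskeleton genes left out of the clustering, and with classes by marker score. It became 2 at resolution 0.4 and with nuclei thinned to 2000 UMIs, and ranged from 1 to 2 with a library left out. In Sox9-high against other nuclei the count higher was 0, and 2 with thinned nuclei or a cutoff of 10 Sox9 UMIs. With thinned nuclei the 2 were Actn1 and Tagln. Tagln then had 0 UMIs in Sox9-high nuclei, and its fold came from setting that count to 3. The count lower was 2, and 1 with a cutoff of 3 or of 10 Sox9 UMIs or with the cluster highest in Sox9, and 0 to 2 with a library left out. Of members more accessible in transitional-like than in ATII-like nuclei there were 2. There was 1 with the doublet scores left out, at resolution 0.4, by marker score, within 10000 bp and with cluster 5 alone, and 0 to 3 with a library left out. Against ATI-like nuclei the 2 became 0 with at least 1000 UMIs and by marker score, and ranged from 2 to 3 with a library left out. In ATI-like against ATII-like nuclei 0 became 1 with the doublet scores left out and ranged from 0 to 2 with a library left out. In Sox9-high against other nuclei 0 became 1 at 10 Sox9 UMIs and ranged from 0 to 2. The cause of these moves was not tested. Shares over all genes are given only for the main setting, so the counts under other settings have no background beside them. By marker score, where 864 of 7184 nuclei lay near the cut between classes, Tpm2 was 39.2-fold higher in transitional-like than in ATII-like nuclei and 4.06-fold higher than in ATI-like nuclei. The Tagln fold in Sox9-high against other nuclei turned to 2.89 in thinned nuclei, where counts under 3 were set to 3. No other called fold of a member turned its direction under these settings. Classes rest on clusters, and nuclei of the 4 libraries are not replicates of a labelled group. Tagln, with 57 UMIs in transitional-like nuclei, is too sparse to order the libraries firmly. No paired analysis was possible because the libraries in the matrices carry no replicate number and match no label.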
